A study of Mus musculus with 16 samples.

Results

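The genes described here are 8 genes listed for lymphoid homing, egress and quiescence. These are the egress receptor S1pr1, its partner at the cell surface Cd69, and the Krüppel-like factors Klf2, Klf3 and Klf6. The others are the paired transcription factors Tcf7 and Lef1 and the actin cross-linker Actn1. They were taken by symbol, each symbol matched 1 gene identifier, and together they make up 8 of the 49585 genes in the count table. All 8 passed the filter on low counts that left 30096 genes for testing.

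The study profiled regulatory T cells (Treg) of the mouse uterus with and without pregnancy, beside lymph node Treg and other uterine CD4+ T cells. All mice were of a BALB/c background and carried the Foxp3 IRES-GFP reporter, in which green fluorescent protein marks cells that express Foxp3; no source used here gives their age. The pregnant uterine Treg were sorted as CD4+Foxp3+CD25- from uteri taken on days 6 to 8 of pregnancy by the source labels, although 3 of the 4 sample titles, read as days, end later. The uterine Treg of non-pregnant mice were sorted by the same markers. The lymph node Treg came from the para-aortic nodes of non-pregnant mice and were sorted as CD4+Foxp3+CD25+, so the CD25 gate and the tissue cannot be told apart. The conventional CD4+ T cells (CD4conv) were CD4+Foxp3- cells of the non-pregnant uterus. There were 4 libraries in a group, and a library pooled 3 to 8 pregnant or 20 non-pregnant animals. By the labels, sequencing batch 1 held pregnant uterine Treg and CD4conv, and batch 2 held uterine Treg of non-pregnant mice and lymph node Treg.

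A lymphocyte leaves a lymph node or tissue by following sphingosine 1-phosphate, which is plentiful in blood and lymph, through its receptor S1PR1. KLF2 switches on the S1pr1 gene in resting T cells, while CD69, which appears on activation and on cells that stay in tissues, binds S1PR1 and removes it from the surface. TCF-1 (Tcf7) and LEF-1 are partners of beta-catenin and keep naive and memory T cells in a resting, self-renewing state.

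The libraries differed in depth and in how much of their signal came from genes that T cells do not use. Total counts, in units of 1000000, ran between 1.72 and 15.2 (median 5.20). If reads in 1427 olfactory and vomeronasal receptor genes are taken as background spread evenly over exons, background made up between 8.69% and 53.6% of a library's counts. It was over 30% in 5 libraries, which were pregnant uterine Treg 2 and 4, uterine Treg 3 and 5, and lymph node Treg 3. Foxp3 was between 192 and 814 counts per 1000000 counts (CPM) in pregnant uterine Treg, between 227 and 714 in uterine Treg and between 407 and 784 in lymph node Treg, against 0.503 to 3.26 CPM in CD4conv. The 8 T cell markers had sums between 1193 and 6259 CPM in the 12 Treg libraries and between 1512 and 3526 CPM in CD4conv. The 12 macrophage and dendritic cell markers, led by Cd74 and Apoe in CD4conv, summed to 145 to 458 CPM in pregnant uterine Treg, 265 to 1238 in uterine Treg and 98.6 to 129 in lymph node Treg, against 1499 to 21197 CPM in CD4conv. The 8 plasmacytoid dendritic cell markers, led by Siglech and Irf8, summed to 88.5 to 551 CPM in the Treg libraries and to 2686 to 6603 CPM in CD4conv. The 8 cytotoxic and CD8 markers, led by Cd8b1 in CD4conv, summed to 55.9 to 209 CPM in the Treg libraries and to 257 to 449 CPM in CD4conv. Of the markers, the plasmacytoid gene Cox6a2 was at 0 in all 4 uterine Treg libraries, and no other marker was at 0 throughout a group. The sums of the B cell, endothelial, stromal and muscle, and epithelial lists overlapped between the uterine Treg of non-pregnant mice and each of the other groups.

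Per kilobase of exon, the members spanned a wide range of levels. Klf2 was first in 16 of 16 libraries at 487 ± 165 CPM per kb (mean ± SD, n = 16), followed by Klf6 at 259 ± 83.3, S1pr1 at 196 ± 92.9, Tcf7 at 137 ± 66.5 and Cd69 at 71.4 ± 28.4 CPM per kb. Lef1 at 18.8 ± 8.31, Klf3 at 14.1 ± 6.11 and Actn1 at 6.52 ± 2.12 CPM per kb were much lower. The level exceeded 5 times the estimated background of its library in all 16 libraries for Klf2, Klf6, S1pr1 and Tcf7, in 15 for Cd69, in 12 each for Lef1 and Klf3, and in 6 for Actn1. Actn1 is therefore the member least separated from background, and on its average over the libraries it was the only one of the 8 not above 5 times background.

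Within their gene families, S1pr1, Klf2 and Tcf7 ranked first in every library and the other members did not. S1pr1 was the highest of 5 sphingosine 1-phosphate receptors in 16 of 16 libraries, and S1pr4, the second, was at 26.6 ± 10.1 CPM per kb. Klf2 was first and Klf6 second of 17 Krüppel-like factors in 16 of 16 libraries, ahead of Klf13 at 36.7 ± 12.4 and Klf10 at 21.6 ± 9.88 CPM per kb. Klf3 had a median rank of 6 in that family. Tcf7 was the highest of the 4 TCF/LEF genes in 16 of 16 libraries and Lef1 was first or second in 15 of 16. Actn4, at 40.4 ± 16.1 CPM per kb, was above Actn1 in 16 of 16 libraries.

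**Figure D1:**
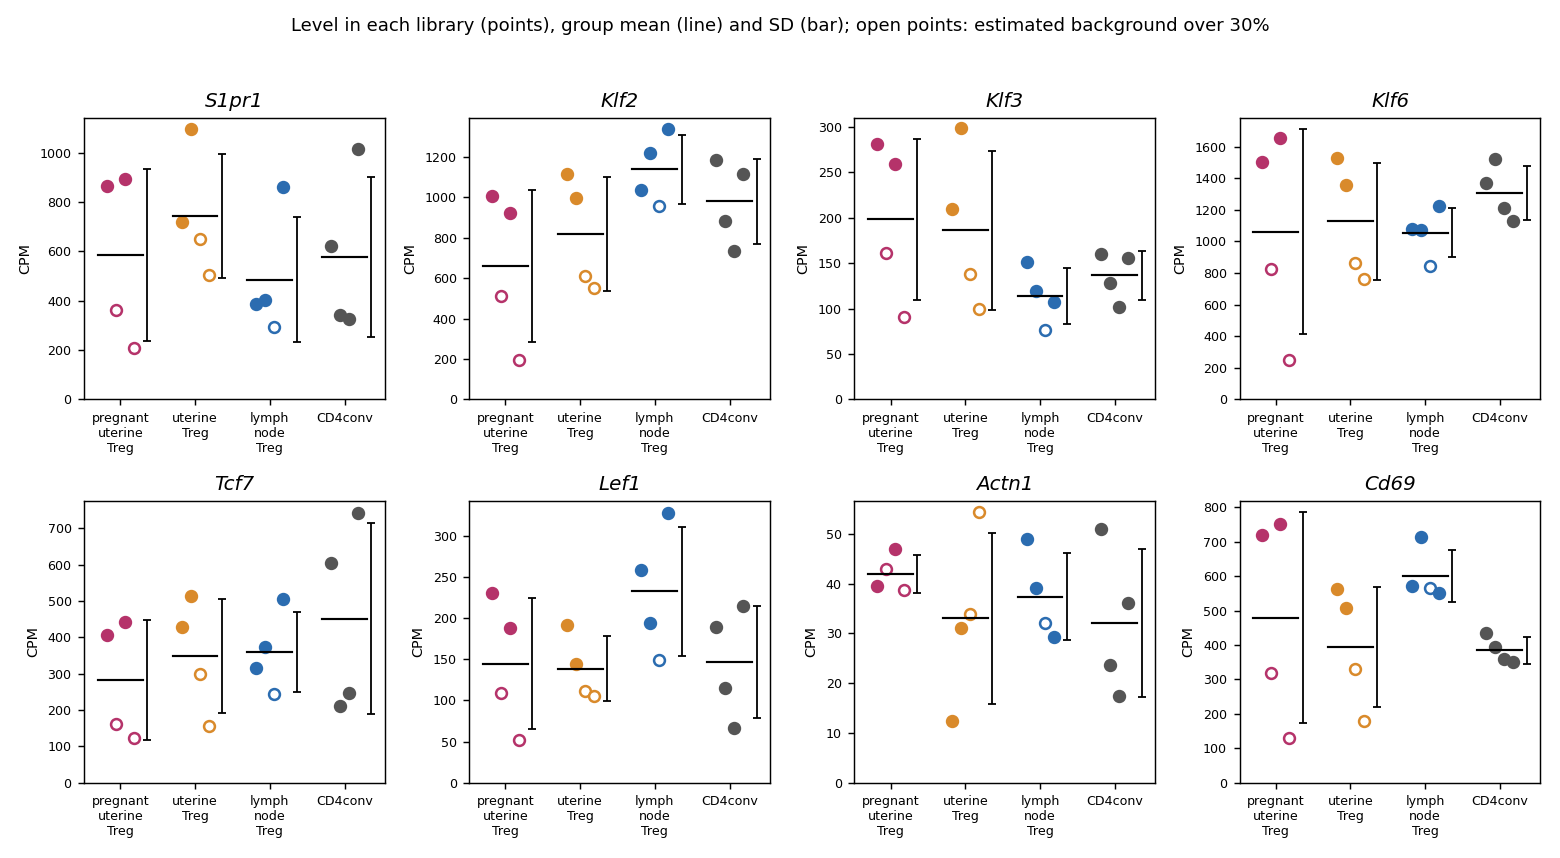
Level of each of the 8 genes in CPM (vertical axes, from 0) in the 4 libraries of pregnant uterine Treg, uterine Treg, lymph node Treg and CD4conv; points are libraries, lines are group means, bars are SD, and open points are libraries with an estimated background over 30%. In the 5 comparisons made the groups overlap for each gene (Cd69 in lymph node Treg lies above CD4conv, a pair not compared), and in both uterine Treg groups the open points lie below the filled ones for every gene but Actn1.

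S1pr1 (ENSMUSG00000045092; GRCm38 chromosome 3, 115710433 to 115715072, minus strand, with 2 exons once transcripts are merged) encodes the receptor that draws lymphocytes out of tissue. It was at 867, 364, 894 and 210.4 CPM in pregnant uterine Treg (pools 1 to 4) and at 719.5, 1097, 652 and 505 CPM in uterine Treg (pools 1, 2, 3 and 5, the numbering of all 3 non-pregnant groups). It was at 387, 405, 292 and 860.0 CPM in lymph node Treg and at 621, 342, 327 and 1017 CPM in CD4conv. Each group held libraries above 500 CPM, uterine Treg had 4 such libraries and lymph node Treg had 1. By group mean the order was uterine Treg (743), pregnant uterine Treg (584), CD4conv (577) and lymph node Treg (486 CPM), and no neighbours in that order were separated.

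Cd69 (ENSMUSG00000030156; GRCm38 chromosome 6, 129267325 to 129275436, minus strand) encodes the activation and residency antigen that removes S1PR1 from the surface. It was at 720.2, 317, 751 and 129 CPM in pregnant uterine Treg and at 562, 508, 332 and 180.2 CPM in uterine Treg. It was at 570.1, 713, 565 and 551 CPM in lymph node Treg and at 436, 395, 358 and 349 CPM in CD4conv. The lowest lymph node library lay above the highest CD4conv library. That pair of groups was not compared, and the share of all genes separated in it was not computed. It also differs in tissue, sort markers and batch, which cannot be told apart. Pregnant uterine Treg spanned the levels of both, and the highest library of all was in that group. Uterine Treg averaged 396 ± 174 CPM, close to the 385 ± 39.7 CPM of CD4conv.

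Klf2 (ENSMUSG00000055148; GRCm38 chromosome 8, 72319033 to 72321656, plus strand) encodes the activator of the egress and homing program. It was at 1009, 513, 924 and 197 CPM in pregnant uterine Treg and at 1117, 999, 609.5 and 552 CPM in uterine Treg. It was at 1036, 1222, 960.1 and 1337 CPM in lymph node Treg and at 1188, 882, 737 and 1117 CPM in CD4conv. All 4 lymph node libraries were at 960.1 CPM or more, which 1 of 4 pregnant and 2 of 4 non-pregnant uterine Treg libraries reached.

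Klf3 (ENSMUSG00000029178; GRCm38 chromosome 5, 64803388 to 64832901, plus strand) encodes a repressor that is itself a target of KLF1 in red cell precursors. It was at 281, 161, 259 and 90.9 CPM in pregnant uterine Treg and at 209, 298, 138 and 99.5 CPM in uterine Treg. It was at 152, 119.6, 76.8 and 107 CPM in lymph node Treg and at 159.7, 128, 102 and 156 CPM in CD4conv. In the uterine Treg groups, 5 of 8 libraries exceeded every lymph node and CD4conv library. The 3 others were libraries with over 30% background. Neither library kit marks the strand of the RNA, and 404 exonic bases of Klf3 overlap the opposite-strand gene Gm20033, so reads there could come from either gene.

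Klf6 (ENSMUSG00000000078; GRCm38 chromosome 13, 5861482 to 5870394, plus strand) encodes an early response factor found in most tissues. It was at 1505, 826, 1658 and 252 CPM in pregnant uterine Treg and at 1525, 1357, 867 and 762 CPM in uterine Treg. It was at 1077, 1071, 847 and 1226 CPM in lymph node Treg and at 1367, 1521, 1213 and 1130 CPM in CD4conv. The group means lay within 1055 to 1308 CPM.

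The promoters of the 3 Krüppel-like factors are shown because the ratios of Klf3 and of Klf6 to Klf2, given further on with their limits, separated the uterine from the lymph node Treg libraries. Each sequence is RefSeq GRCm38.p6, runs 5′ to 3′ on the plus strand from 250 bases before to 50 bases after the start, and has in capitals CACCC or its reverse complement GGGTG, the box that Krüppel-like factors bind. They lie at chr8:72318812-72319111 (Klf2), chr5:64803271-64803570 (Klf3) and chr13:5861239-5861538 (Klf6). The table used held promoters for 6 of the 8 members, all but S1pr1 and Cd69.
Klf2: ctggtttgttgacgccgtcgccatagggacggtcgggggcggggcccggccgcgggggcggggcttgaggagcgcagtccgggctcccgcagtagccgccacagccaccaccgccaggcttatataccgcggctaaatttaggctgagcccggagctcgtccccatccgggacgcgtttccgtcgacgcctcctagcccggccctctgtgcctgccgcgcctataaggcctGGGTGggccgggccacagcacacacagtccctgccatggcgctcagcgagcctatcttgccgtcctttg
Klf3: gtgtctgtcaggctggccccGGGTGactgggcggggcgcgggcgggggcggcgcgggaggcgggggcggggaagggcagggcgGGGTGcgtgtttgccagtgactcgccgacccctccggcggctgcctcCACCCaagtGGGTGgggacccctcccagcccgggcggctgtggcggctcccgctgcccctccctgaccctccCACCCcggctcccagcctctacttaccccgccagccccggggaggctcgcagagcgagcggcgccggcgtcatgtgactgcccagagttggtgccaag
Klf6: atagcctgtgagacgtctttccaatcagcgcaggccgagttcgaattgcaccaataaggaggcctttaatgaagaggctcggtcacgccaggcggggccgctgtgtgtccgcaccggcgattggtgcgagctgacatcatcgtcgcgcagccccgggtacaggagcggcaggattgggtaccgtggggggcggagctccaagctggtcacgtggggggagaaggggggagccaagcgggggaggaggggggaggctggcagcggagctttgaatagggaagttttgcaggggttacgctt

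The box occurs 5 times in the Klf3 sequence, 1 time in that of Klf2 and 0 times in that of Klf6, and 57.5% of 32851 promoters of this length hold it on either strand. GC content was 76.7% in Klf3, 69.3% in Klf2 and 63% in Klf6. The matches are of letters only.

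Tcf7 (ENSMUSG00000000782; GRCm38 chromosome 11, 52252371 to 52283014, minus strand) encodes TCF-1. It was at 407, 161, 443 and 123 CPM in pregnant uterine Treg and at 429, 513, 299 and 155 CPM in uterine Treg. It was at 315, 374, 244 and 505 CPM in lymph node Treg and at 604.5, 211, 247 and 744 CPM in CD4conv. CD4conv held both high and low libraries, with no level between 247 and 604.5 CPM, and its spread took in 9 of the 12 Treg libraries.

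Lef1 (ENSMUSG00000027985; GRCm38 chromosome 3, 131110471 to 131224356, plus strand) encodes the partner factor LEF-1. It was at 230.1, 109.5, 188 and 51.5 CPM in pregnant uterine Treg and at 192, 144, 112 and 105 CPM in uterine Treg. It was at 258, 194, 149 and 328 CPM in lymph node Treg and at 189, 115, 66.9 and 215 CPM in CD4conv. The highest 2 libraries were both from the lymph node, and 3 of 4 lymph node libraries lay above all 4 of uterine Treg. The opposite-strand gene Gm43352 shares 1208 exonic bases with Lef1.

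Actn1 (ENSMUSG00000015143; GRCm38 chromosome 12, 80167547 to 80260371, minus strand) encodes alpha-actinin-1, which ties actin filaments together and to integrins. It was at 39.5, 42.8, 46.9 and 38.6 CPM in pregnant uterine Treg and at 12.4, 31.2, 34.0 and 54.4 CPM in uterine Treg. It was at 48.9, 39.1, 32.0 and 29.3 CPM in lymph node Treg and at 51.1, 23.7, 17.4 and 36.1 CPM in CD4conv. The uterine Treg library with the highest level, pool 5, was also one of those with over 30% background. Gm47766 and Gm47767 on the opposite strand share 451 exonic bases with Actn1.

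The levels of most members moved with the background of the library. Across the 16 libraries, Pearson r of log2(CPM + 1) with the background percentage was -0.90 for Klf6, -0.75 for Klf2 and -0.71 for Cd69. It was -0.64 for Tcf7, -0.62 for Klf3, -0.59 for Lef1 and -0.56 for S1pr1, against 0.20 for Actn1. These are descriptions over libraries in which background and each gene share 1 total, and the median over 4728 protein-coding genes above 5 times background was -0.45. Among the members, log2(CPM + 1) of Klf2 and Klf6 (r = 0.87), Klf2 and Cd69 (0.84) and Klf2 and Lef1 (0.84) were closest over the 16 libraries, and that of Klf2 and Klf3 was looser (0.35). Pearson r of Actn1 with the other 7 ran between -0.26 and 0.13.

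**Figure D2:**
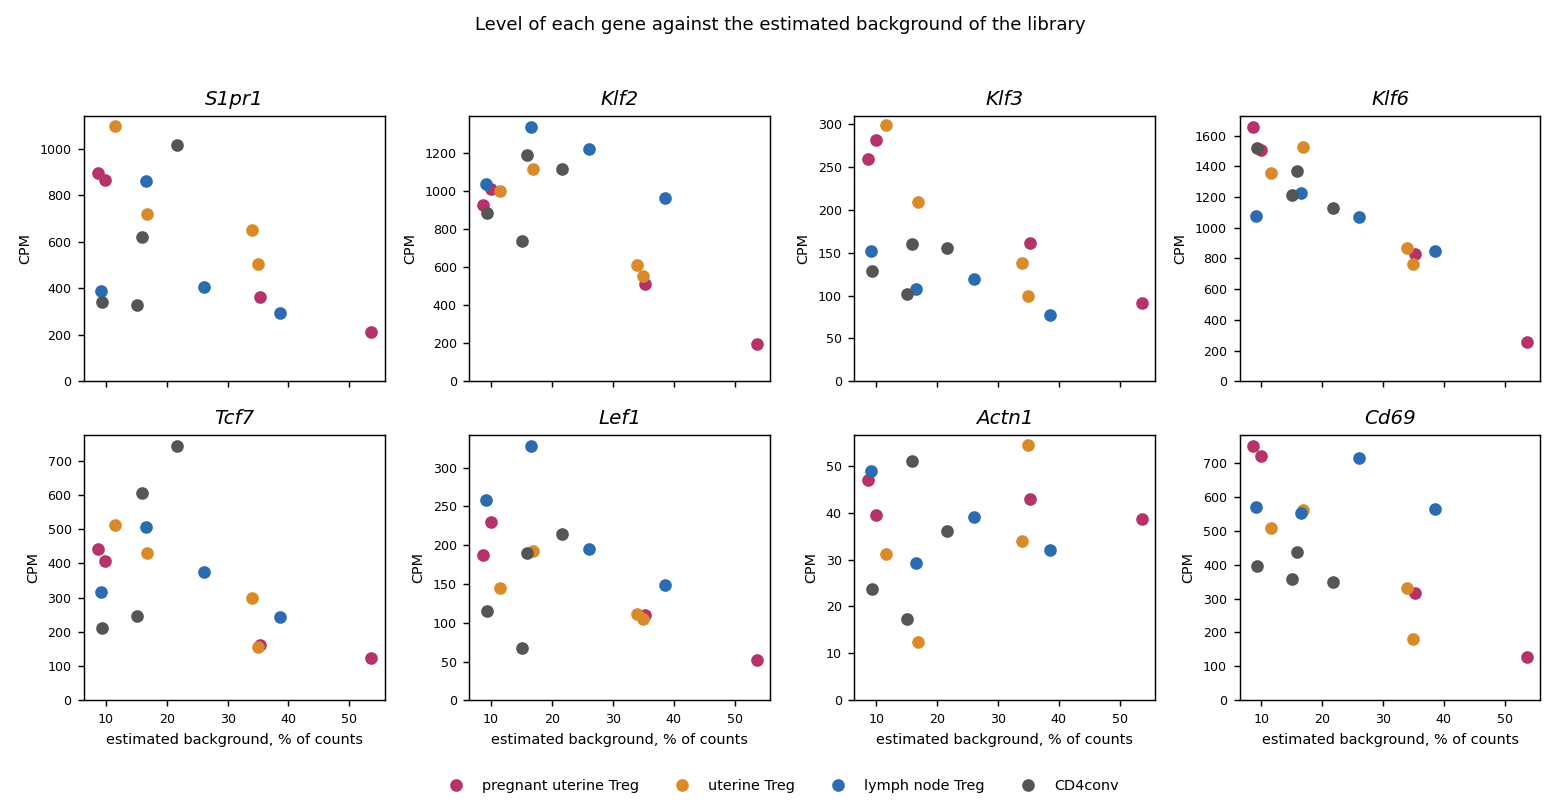
Level of each of the 8 genes in CPM (vertical axes) against the estimated background of the library in percent of counts (horizontal axes); points are the 16 libraries, coloured by group. Levels are lower where background is higher for 7 genes, most closely for Klf6 (r = -0.90), and Actn1 (r = 0.20) does not follow. Each r is of log2(CPM + 1) with the background percentage.

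Uterine Treg were first set against lymph node Treg, both in batch 2. No member passed an adjusted p of 0.05 in edgeR's quasi-likelihood test over all 30096 genes: 0 of 8 were called, 0 had an unadjusted p under 0.05, and 0% of all genes were called. DESeq2 called 0 of the 8. Fold changes were 0.55 ± 0.68 for S1pr1, 0.63 ± 0.63 for Klf3, -0.53 ± 0.65 for Klf2, -0.61 ± 0.67 for Cd69, -0.50 ± 0.53 for Actn1 and -0.91 ± 0.63 for Lef1 (log2 ± SE), and were within 0.1 of 0 for Klf6 and Tcf7. The 95% interval for Lef1 ran between -2.29 and 0.47, and that for S1pr1 between -0.93 and 2.03, so differences of more than 2-fold in either of these genes were within the intervals. In genes above background, 1.29% of 4723 genes were called and 0 of the 7 members in that set. Klf3 came closest at 0.82 ± 0.25 (adjusted p = 0.143, edgeR) and S1pr1 was at 0.77 ± 0.36 (adjusted p = 0.439); these 2 had unadjusted p under 0.05. The summed macrophage and dendritic cell markers were also higher in uterine Treg (265 to 1238 CPM) than in lymph node Treg (98.6 to 129 CPM), with 1 of the 10 tested above background called higher, Fcer1g, and 0 called over all genes; their part in these values was not tested. By CPM the groups overlapped for all members, so 0 of the 8 were separated, against 3.4% of all tested genes. In bulk samples such as these, fewer cells that express a gene and less RNA of it per cell cannot be told apart.

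Pregnant uterine Treg were set against the same lymph node libraries, across batches, so batch and group cannot be told apart. Over all genes 0 of 8 members were called in edgeR, 0 had an unadjusted p under 0.05, DESeq2 called 0, and 0% of all genes were called. The largest fold changes were 0.81 ± 0.63 for Klf3, -0.64 ± 0.66 for Klf2 and -0.62 ± 0.63 for Lef1. In genes above background, Klf3 was higher by 0.98 ± 0.25 (adjusted p = 0.0408, edgeR; mean 198 ± 88.4 CPM in pregnant uterine Treg and 114 ± 31.0 CPM in lymph node Treg, SD, n = 4 each). It was 1 of 7 members called, against 2.35% of 4723 genes. Klf2 was at -0.66 ± 0.25 (unadjusted p = 0.0156, adjusted p = 0.193). The Klf3 call was lost without any 1 of 7 of the 8 libraries compared (adjusted p = 0.052 to 0.151) and kept without pregnant uterine Treg 4 (adjusted p = 0.0368). Without the 5 libraries with over 30% background the Klf3 difference was 1.07 (adjusted p = 0.106). Summed levels were also higher in pregnant uterine Treg than in lymph node Treg for the macrophage and dendritic cell markers (145 to 458 against 98.6 to 129 CPM) and for the cytotoxic and CD8 markers (135 to 209 against 55.9 to 85.8 CPM), and their part in these values was not tested. In CPM, 0 of 8 had groups that did not overlap, against 4.29% of all tested genes.

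Against CD4conv, whose libraries also carried the macrophage and plasmacytoid dendritic cell markers given above, no member passed the test in edgeR. The part of those cells in the values was not tested. For uterine Treg against CD4conv, which crosses batches, 0 of 8 were called and 0 had an unadjusted p under 0.05, while 0.518% of all genes were called. The log2 fold changes ran between -0.45 and 0.34. Above background 0 of 7 members were called, against 6.1% of genes. For pregnant uterine Treg against CD4conv, within batch 1, 0 of 8 were called and 0 had an unadjusted p under 0.05, against 0.432% of all genes called. Klf2 was at -0.53 ± 0.65, Klf3 at 0.52 ± 0.63 and Tcf7 at -0.50 ± 0.67. Above background 0 of 7 were called, against 8.38% of genes, and Klf3 came closest at 0.66 ± 0.24 (adjusted p = 0.102, edgeR). Without the 5 libraries of highest background, Klf2 and Tcf7 turned to 0.11 and 0.14. DESeq2 called 0 of the 8 in either comparison, and 0 of 8 had groups that did not overlap in CPM, against 4.33% of genes for uterine Treg and 4.36% for pregnant uterine Treg.

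Pregnant uterine Treg were last set against uterine Treg of non-pregnant mice, also across batches. Again 0 of 8 members were called, 0 had an unadjusted p under 0.05, DESeq2 called 0 and 0% of genes were called over all genes or above background. Actn1 had the largest fold change at 0.56 ± 0.53, followed by Cd69 at 0.48 ± 0.67, and the other 6 ran between -0.14 and 0.29. For Cd69 the 95% interval ran between -0.98 and 1.94. The summed cytotoxic and CD8 markers were higher in pregnant (135 to 209 CPM) than in non-pregnant uterine Treg (58.9 to 96.3 CPM), and their part in these values was not tested. In CPM, 0 of 8 had groups that did not overlap, against 1.03% of all tested genes.

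**Figure D3:**
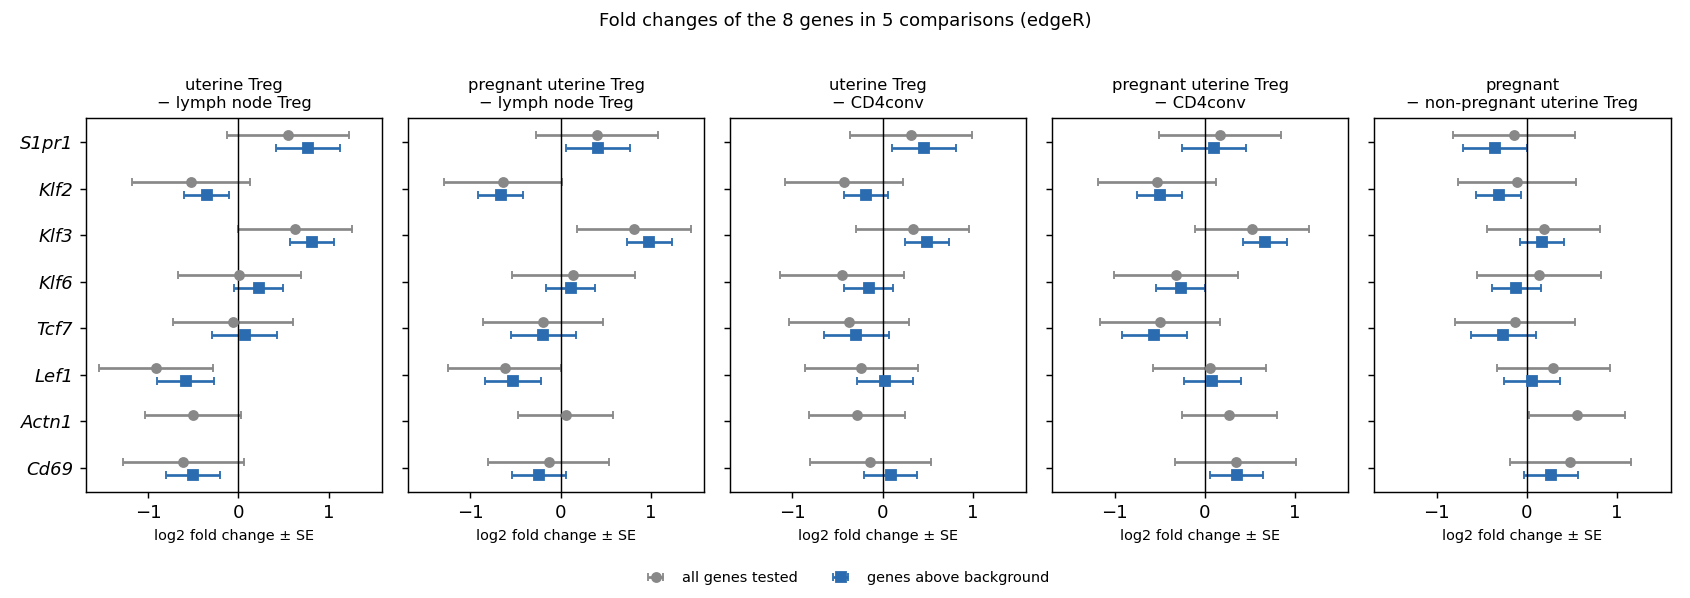
Log2 fold change with its SE (horizontal axes) of the 8 genes in the 5 comparisons, from edgeR fitted over all genes tested (grey) and over genes above background (blue; Actn1 is not in that set). Klf3 in pregnant uterine Treg against lymph node Treg, at 0.98 ± 0.25 in blue, is the one value past the threshold.

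The ratio of 2 genes within a library does not depend on the scaling between libraries. Some ratios separated groups that the levels did not, which many pairs of other genes also did. Against lymph node Treg, 8 of 28 pairs of members separated uterine Treg (10.1% of all pairs of genes above background). For pregnant uterine Treg it was 10 of 28 (14.2%). Against CD4conv the counts were 2 of 28 (13.7%) and 6 of 28 (15.8%). Ratios are differences of log2(CPM + 1). Klf3 over Klf2 was -1.84, -1.66, -1.83 and -1.11 in pregnant uterine Treg and -2.41, -1.74, -2.14 and -2.46 in uterine Treg. It was -2.76, -3.34, -3.63 and -3.63 in lymph node Treg and -2.89, -2.77, -2.84 and -2.83 in CD4conv. All 8 uterine Treg libraries thus lay above all 8 lymph node Treg and CD4conv libraries. The mean was higher by 1.73 in pregnant uterine Treg and by 1.15 in uterine Treg than in lymph node Treg, and by 1.22 and 0.64 in these 2 groups than in CD4conv. With the estimated background subtracted from each gene, the ratio still separated pregnant uterine Treg (-2.16 to -1.88) from lymph node Treg (-4.51 to -2.85) and from CD4conv (-3.05 to -2.88). Uterine Treg (-3.01 to -1.79) then overlapped both lymph node Treg and CD4conv, with means higher by 1.26 and 0.54. Without the 5 libraries of highest background, uterine Treg again lay above lymph node Treg (-2.41 to -1.74 against -3.63 to -2.76). The pregnant and non-pregnant uterine groups overlapped, also with background subtracted.

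Klf6 over Klf2 behaved likewise between tissues. It was 0.58, 0.69, 0.84 and 0.35 in pregnant uterine Treg and 0.45, 0.44, 0.51 and 0.46 in uterine Treg, against 0.06, -0.19, -0.18 and -0.12 in lymph node Treg. By CPM, which does not correct for exon length, Klf6 was above Klf2 in all 8 uterine Treg libraries. Klf2 was above Klf6 in 3 of 4 lymph node libraries. Per kilobase of exon, Klf2 was above Klf6 in 16 of 16 libraries, so only the shift of the ratio between groups is read here. CD4conv ran between 0.02 and 0.79 and overlapped all 3 Treg groups. Means were higher than in lymph node Treg by 0.72 in pregnant uterine Treg and 0.58 in uterine Treg, where the pooled SD of the groups was 0.17 and 0.08.

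S1pr1 over Klf2, the egress receptor relative to its activator, was between -0.49 and 0.09 in pregnant uterine Treg and between -0.63 and 0.13 in uterine Treg, against -1.71 to -0.64 in lymph node Treg. The lowest uterine Treg library and the highest lymph node library lay next to each other, at -0.634 and -0.636. S1pr1 over Lef1 was between 1.72 and 2.25 in pregnant uterine Treg and between 1.90 and 2.92 in uterine Treg, against 0.58 to 1.39 in lymph node Treg. Klf3 over Lef1 was between 0.29 and 0.81 in pregnant uterine Treg and between -0.08 and 1.04 in uterine Treg, against -1.61 to -0.70 in lymph node Treg. Klf3 over Cd69 also set pregnant (-1.53 to -0.50) and non-pregnant uterine Treg (-1.42 to -0.77) above lymph node Treg (-2.86 to -1.90).

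Cd69 over S1pr1, the antagonist relative to the receptor, did not separate the tissues. It was between -0.70 and -0.20 in pregnant uterine Treg and between -1.48 and -0.36 in uterine Treg, against -0.64 to 0.95 in lymph node Treg. Exon length, 6.51 kb for Cd69 and 3.05 kb for S1pr1, is not corrected for in CPM. The sign of this ratio therefore does not tell which transcript was more abundant. Per kilobase, S1pr1 was above Cd69 in every library. The ratio by CPM was below 0 in 8 of 8 uterine Treg libraries and above 0 in 3 of 4 lymph node libraries. Without lymph node Treg 5, the fourth, the tissues did not overlap (0.56 to 0.95 in lymph node Treg), nor did uterine and lymph node Treg without uterine Treg 1 (-1.48 to -0.97 against -0.64 to 0.95). With any other library left out the groups overlapped. They also overlapped with background subtracted and without the 5 libraries of highest background.

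Between pregnant and non-pregnant uterine Treg, 3 ratios separated the groups. Klf2 over Cd69 was between 0.30 and 0.69 in pregnant uterine Treg and between 0.88 and 1.61 in uterine Treg. Klf6 over Cd69 was between 0.96 and 1.38 in pregnant uterine Treg and between 1.384 and 2.07 in uterine Treg, with the nearest libraries of the 2 groups side by side. Klf2 over Lef1 was between 1.92 and 2.29 in pregnant uterine Treg and between 2.38 and 2.78 in uterine Treg. With the estimated background subtracted from each gene, Klf2 over Lef1 and Klf6 over Cd69 overlapped between the pregnant and non-pregnant groups. Only Klf2 over Cd69 still separated them, with the nearest libraries close together. Lef1 in pregnant uterine Treg 4 fell from 51.5 to 13.5 CPM by that subtraction. By CPM the same 3 ratios were also lower in pregnant uterine Treg than in CD4conv, the other group of batch 1. Klf2 over Cd69 was at 1.04 to 1.67 in CD4conv. With the estimated background subtracted, Klf2 over Lef1 overlapped between pregnant uterine Treg and CD4conv. The part of the macrophage and plasmacytoid dendritic cell markers of CD4conv in these ratios was not tested.

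Of the 28 pairs of members, 8 had ratios that separated uterine Treg and lymph node Treg, against 10.1% of 11174628 pairs of genes above background. The count was 10 of 28 for pregnant uterine Treg against lymph node Treg (14.2% of all pairs), 2 of 28 for uterine Treg against CD4conv (13.7%), 6 of 28 for pregnant uterine Treg against CD4conv (15.8%) and 3 of 28 for pregnant against non-pregnant uterine Treg (3.23%). The 28 pairs include those with Actn1, which is not above background, and none of these separated any groups compared. The reference pairs were not matched to the members for level. The pairs share genes and the comparisons share libraries, so these counts are descriptions with no test.

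**Figure D4:**
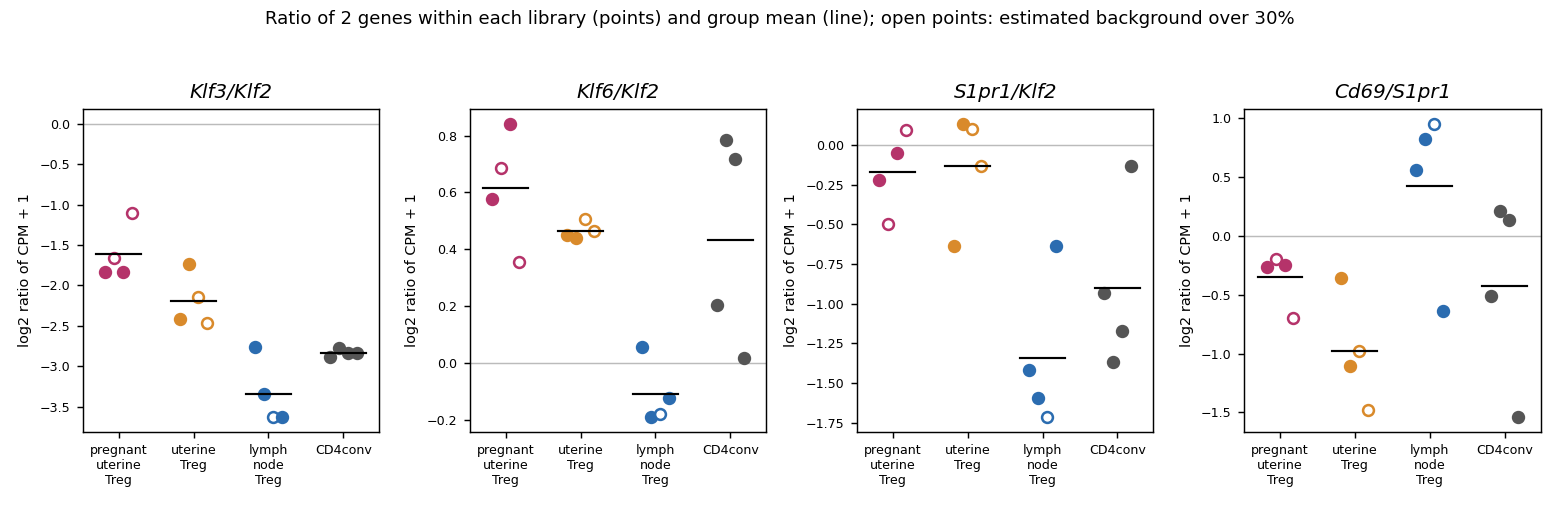
Difference of log2(CPM + 1) between 2 genes of the same library (vertical axes) for Klf3 over Klf2, Klf6 over Klf2, S1pr1 over Klf2 and Cd69 over S1pr1 in the 4 groups; points are libraries, lines are group means, and open points are libraries with an estimated background over 30%. For Klf3 over Klf2 both uterine Treg groups (-2.46 to -1.11) lie above lymph node Treg and CD4conv (-3.63 to -2.76), whereas Cd69 over S1pr1 overlaps between groups.

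Among 12 partners of the pathway (homing and egress receptors, integrins and their signalling proteins), none was called over all genes in the 5 comparisons. Above background, Ccr7, the chemokine receptor that brings T cells into lymph nodes, was lower in both uterine Treg groups. It averaged 580 ± 397 CPM in pregnant uterine Treg and 798 ± 278 CPM in uterine Treg, against 2835 ± 1385 CPM in lymph node Treg (SD, n = 4 each). The fold change was -2.11 ± 0.38 for pregnant uterine Treg (adjusted p = 0.00537, edgeR; called in 8 of 8 fits that left out 1 library) and -1.69 ± 0.37 for uterine Treg (adjusted p = 0.0314; called in 1 of 8 such fits, the one without lymph node Treg 1). The macrophage and dendritic cell markers, higher in both uterine Treg groups than in lymph node Treg, move with this difference and with those of Il7r, Tsc22d3 and Egr1, and their part was not tested. Il7r, the interleukin 7 receptor, was higher in pregnant uterine Treg at 140 ± 68.2 CPM than in lymph node Treg at 76.0 ± 7.92 CPM (1.04 ± 0.27, adjusted p = 0.0485, called in 1 of 8 fits that left out 1 library, the one without pregnant uterine Treg 4). Of the 12 partners, 1 was called lower for uterine Treg against lymph node Treg (median 0.08, all genes above background 0.05), and 1 higher and 1 lower for pregnant uterine Treg (median -0.10, all genes 0.05).

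Against CD4conv the partners called were Itgb7, a chain of the gut homing integrin, and Cxcr4, a retention receptor. Itgb7 averaged 1213 ± 685 CPM in pregnant uterine Treg and 1250 ± 558 CPM in uterine Treg, against 691 ± 174 CPM in CD4conv (0.89, adjusted p = 0.0431, and 0.91, adjusted p = 0.0444, edgeR above background). Each Itgb7 call was kept in 1 of 8 fits that left out 1 library, those without pregnant uterine Treg 4 and without uterine Treg 5. Cxcr4 averaged 99.5 ± 24.1 CPM in uterine Treg, against 52.4 ± 12.9 CPM in CD4conv (1.03, adjusted p = 0.0227, kept in 4 of 8 such fits). It was lost without uterine Treg 1 or 3 and without CD4conv 2 or 3. Coro1a and Gnai2, a regulator of egress and a G protein of chemokine receptors, were the other abundant partners and were not called in any comparison.

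Among 16 genes of T cell quiescence, 14 had negative fold changes in uterine Treg against lymph node Treg over all genes (median -0.56, all genes -0.06), and 0 were called. In that fit the genes above background, which include 13 of the 16, also had a negative median, -0.22. In genes above background 8 of 13 were negative (median -0.26, all genes 0.05) and 1 was called. That was Tsc22d3, the glucocorticoid-induced leucine zipper gene, at 278 ± 139 CPM in pregnant uterine Treg and 255 ± 99.0 CPM in uterine Treg, against 674 ± 133 CPM in lymph node Treg. Its fold change was -1.11 ± 0.26 for pregnant uterine Treg (adjusted p = 0.0307, edgeR above background) and -1.28 ± 0.26 for uterine Treg (adjusted p = 0.0204). The Tsc22d3 call was kept in 2 of 8 fits that left out 1 library for pregnant uterine Treg, those without pregnant uterine Treg 1 and without lymph node Treg 1. For uterine Treg it was kept in 4 of 8, and lost without lymph node Treg 2 or 3 or uterine Treg 1 or 3. Btg1, Ets1 and Btg2, other abundant genes of the list, were not called in any comparison.

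Foxo1, the factor that holds Klf2 and Il7r active in resting T cells, was higher in both uterine Treg groups than in CD4conv. It averaged 662 ± 205 CPM in pregnant uterine Treg and 663 ± 286 CPM in uterine Treg, against 263 ± 109 CPM in CD4conv (1.56 ± 0.28, adjusted p = 0.00153, and 1.41 ± 0.28, adjusted p = 0.00375, edgeR above background). Each Foxo1 call was kept in 8 of 8 fits that left out 1 library. Lymph node Treg were at 665 ± 131 CPM. Bcl2, a survival gene, was at 84.8 ± 24.5 CPM in pregnant uterine Treg and 256 ± 81.9 CPM in CD4conv (-1.31 ± 0.31, adjusted p = 0.0121), also kept in 8 of 8. The macrophage and dendritic cell markers of CD4conv move with these differences, and their part was not tested.

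Among 15 genes of tissue residency, 0 were called in either uterine Treg group against lymph node Treg, over all genes or above background. The median fold change over all genes was 0.34 in pregnant uterine Treg (all genes 0.06) and -0.24 in uterine Treg (all genes -0.06). In that fit the genes above background had medians of -0.17 and -0.22 in these comparisons. Itgae, the CD103 chain that binds E-cadherin, averaged 279 ± 126 CPM in pregnant uterine Treg, 157 ± 36.4 in uterine Treg and 209 ± 36.7 in lymph node Treg, against 15.8 ± 9.78 CPM in CD4conv. It was called over all genes against CD4conv, at 4.30 ± 0.71 for pregnant uterine Treg (adjusted p = 0.00213, edgeR) and 3.28 ± 0.68 for uterine Treg (adjusted p = 0.0204). Cxcr6, a chemokine receptor of tissue T cells, was lower in uterine Treg at 5.61 ± 5.16 CPM than in CD4conv at 74.5 ± 44.3 CPM (-3.74 ± 0.87, adjusted p = 0.0474), with 1 uterine Treg library at 0. Rgs2, a regulator of G protein signalling, was called above background in uterine Treg against CD4conv (1.08 ± 0.25, adjusted p = 0.0132). That call was lost without uterine Treg 2 or CD4conv 1.

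Cd69 and Klf6 also respond quickly to cell handling, so 15 immediate-early genes were read beside them. Their summed level was between 3140 and 12118 CPM in pregnant uterine Treg and between 6125 and 11410 CPM in uterine Treg, against 7534 to 10066 CPM in lymph node Treg and 6472 to 12723 CPM in CD4conv. Egr1 was called above background in uterine Treg, at 471 ± 306 CPM against 113 ± 30.3 CPM in lymph node Treg (2.31 ± 0.50, adjusted p = 0.0288, edgeR). That call was kept in 2 of 8 fits that left out 1 library, those without uterine Treg 2 and without uterine Treg 3. The other 13 of 14 tested above background, Junb, Fos, Dusp1 and Zfp36 included, were not called in that comparison, and 0 of 15 were called over all genes in any. The part of cell handling in the levels of Cd69 and Klf6 was not tested. Of 23 paralogs of the members, 20 were tested over all genes and 0 were called in any comparison.

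With the 5 libraries of over 30% background set aside, uterine levels of several members were higher. Klf3 then averaged 270.1 CPM in pregnant uterine Treg (n = 2) and 254 CPM in uterine Treg (n = 2), against 126 CPM in lymph node Treg (n = 3) and 136.5 CPM in CD4conv (n = 4), and all 4 uterine Treg libraries exceeded all 7 others. S1pr1 averaged 881 CPM in pregnant uterine Treg and 908 CPM in uterine Treg, against a mean of 551 CPM in lymph node Treg and of 577 CPM in CD4conv. The groups overlapped except for the 2 pregnant libraries, at 867 and 894 CPM, against lymph node Treg, at 860.0 CPM or less. Cd69 averaged 735 CPM in pregnant uterine Treg and 535 CPM in uterine Treg, against a mean of 611.5 CPM in lymph node Treg and of 385 CPM in CD4conv. Lef1 averaged 209 and 168 CPM in pregnant and non-pregnant uterine Treg, against 260.2 CPM in lymph node Treg. Klf3 was not alone in this: every member but Tcf7 had groups that did not overlap among these libraries in some of the 5 comparisons. The share of all genes that did so was not computed. With 2 libraries in a uterine group these are values and not tests.

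Genes whose levels over the 16 libraries were most like those of 4 members were taken from 8512 protein-coding genes with a mean of at least 20 CPM, as a description over libraries that share background and depth. Nearest to S1pr1 were Stk4, a kinase of lymphocyte trafficking (r = 0.92), Nsd3 (0.90) and Gramd3 (0.90). Nearest to Lef1 were Sh2d2a, a T cell adaptor (0.92), the kinase gene Prkch (0.90) and Pold2, a DNA polymerase subunit (0.90). Nearest to Klf6 were Arhgdia (0.97), Tmem8 (0.96) and Txlna (0.96). Nearest to Cd69 were Pgghg (0.93), the splicing factor gene Hnrnpm (0.93) and Trim26 (0.93).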

How the data were processed

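RNA of sorted CD4+ T cells was measured in 16 libraries; per the labels' protocols, cDNA was made with SMART-Seq v4 and libraries with Nextera XT, read in pairs of 150 bases. The deposited values are raw counts of reads per gene made by the authors, and the single-library files were identical to the joint table in 16 of 16 cases. Per the submitters' processing notes, Trimmomatic, HISAT2, SAMtools, featureCounts and DESeq2 were used with build GRCm38; their versions are absent from every source used here. Symbols, coordinates and exon lengths came from GENCODE M21, which named 49326 of 49585 genes.

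CPM and CPM per kilobase of merged exons were computed from the counts. All genes were tested with edgeR 4.0.16 (R 4.3.3; TMM, filterByExpr, robust quasi-likelihood fit of the 16 libraries with 12 residual degrees of freedom), adjusting p by Benjamini-Hochberg and calling genes under 0.05. SE is the absolute log2 fold change over the square root of F. Replicates are pools, so p-values measure the spread between pools. The test was run on simulated counts with less spread between replicates than the fit over all genes found. The simulation had no differences in background between libraries, so it does not cover these features of the data.

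The fit was repeated on genes above background: the 4723 protein-coding genes tested whose share of counts, averaged over libraries, exceeded 5 times that expected from 1427 olfactory and vomeronasal receptor genes. Between the 2 fits their median log2 fold change moved from -0.22 to 0.05 (uterine against lymph node Treg), -0.17 to 0.05 (pregnant against lymph node), -0.29 to 0.02 (uterine against CD4conv), -0.23 to 0.03 (pregnant against CD4conv) and 0.05 to 0.0035 (pregnancy). Replicates had a biological coefficient of variation of 0.812 in the first fit and 0.433 in the second. Other alternatives were RLE scaling, no filter, DESeq2 1.42.0, only the groups compared, a replicate block, and leaving out libraries.

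The 8 genes and the 13 gene lists were chosen with earlier results of these data known. Named besides the 8 are, by rule, list members called over all genes, the most abundant members of each list and the 3 genes most like each of 4 members; list members called only above background were named after their values were seen. Ratios of genes were compared with those of all pairs among 4728 genes above background.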

Additional observations from a re-analysis of the deposited data

Results flagged for a closer look

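Cd69 in lymph node Treg 2, at 713.25 CPM, stood apart from the other 3 libraries of its group, which lay between 551 and 570.1 CPM; the gap was 0.883 of the range of the group. It was the only one of 32 groups of 4 libraries, 8 genes in 4 groups, in which the highest or lowest library stood out this far, and chance alone gives about 1 such group in 20. Without that library, the lymph node Treg group still lay above the CD4conv group for Cd69. That pair of groups was not tested and crosses batches.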

How the results depend on the processing

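Over all genes, 0 members were called in each of the 5 comparisons under RLE size factors, with no filter on low counts, with DESeq2, with only the 2 groups compared, with any 1 library left out and without the 5 libraries of highest background. The count for pregnant uterine Treg against lymph node Treg became 1, Klf3, in genes above background, 1 there without pregnant uterine Treg 4, and 1 there with a replicate block. Without the 5 libraries of highest background, pregnant uterine Treg against CD4conv turned to 0.11 for Klf2 and 0.14 for Tcf7 (log2); the cause was not tested. Of 13 fold changes of at least 0.5 among the members, these 2 changed sign under some alternative. Others shrank to about 0 without changing sign. For uterine against lymph node Treg, alternatives ran between 0.00 and 1.14 for S1pr1, 0.00 and 1.12 for Klf3, and -0.79 and -0.01 for Actn1. Of the 27 smaller fold changes, 25 changed sign and 0 were called in any alternative. Same-numbered libraries did not consistently deviate together (r over 0.1 in 8 of 21 pairs, -0.404 to 0.358). Of 16 libraries, 5 were closest to one of their own number. The pregnant pools were of other animals and the libraries differed in background, so these values cannot settle whether the numbers pair libraries. The replicate block over all genes called 0 members in each comparison. Alternatives without the highest-background libraries, those that combine 2 choices and those of the ratios were chosen after seeing the data. The 4 ratios plotted kept their direction without a pseudocount, with background subtracted and with libraries left out. At a coefficient of variation of 0.812, the smallest SE of a member's log2 fold change over all genes was 0.53.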
